A study of Homo sapiens with 12 samples.

Results

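*MMP1*, *MMP11*, *MMP14*, *MMP15*, *MMP17*, *MMP24*, *TIMP1*, *TIMP2* and *TIMP3* encode 6 matrix metalloproteinases and 3 of their tissue inhibitors. They were followed in PC3 cells that overexpressed *SFRP2* and in control PC3 cells, each grown with or without a collagen type I coating. The 9 genes were chosen by name and found by their Ensembl identifiers among the 60676 rows of the count table, and 8 of them had enough counts to be tested along with 20364 genes in all. PC3 is an established human prostate cancer line that came from a bone metastasis, and SFRP2 is a secreted protein that binds WNT ligands.

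The data comprised 12 RNA sequencing libraries in 4 groups of 3. COL1-PC3SFRP2 cells carried the *SFRP2* coding sequence in a Sleeping Beauty plasmid and grew on collagen type I, and COL1-PC3 cells carried the plasmid without insert and grew on the same coating. CCP-PC3SFRP2 and CCP-PC3 were the same cell lines on uncoated cell culture plastic. All cells had been selected with puromycin and sorted for red fluorescence, 100000 cells were seeded per flask, and RNA was taken after 5 days. Each transfected line was a single sorted population, so that an effect of SFRP2 and a difference between these lines cannot be told apart. The labels call the libraries biological replicates but do not say whether they were separate cultures, and if they were not, the spread behind each p-value is that of these libraries alone and may be technical.

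Matrix metalloproteinases are zinc-dependent enzymes that cleave collagens and other proteins of the extracellular matrix. Most are secreted as inactive proenzymes, while the membrane-type enzymes stay on the cell surface and are activated inside the cell by furin-like convertases. TIMPs bind the active site of these enzymes and block them. TIMP2 also bridges MMP14 to the proenzyme of MMP2 on the cell surface, so that the balance of MMP14 and TIMP2 is known to set how much MMP2 is activated. In bone metastasis these enzymes are known for the turnover of type I collagen, the main protein of bone matrix.

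The libraries held 5529459 to 9975972 counts in genes. *SFRP2* had 10801 to 28200 CPM (counts divided by the library total and multiplied by 1000000) in each PC3SFRP2 library and 10.5 to 25.2 CPM in each PC3 library. One group stood apart from the rest. Genes of the mitochondrial genome held 7.17% to 16.8% of the counts in COL1-PC3SFRP2 and 19.8% to 24.0% in the 9 other libraries. Across 9427 genes, the shift of a gene from its mean in the other groups followed the GC content of its transcript. COL1-PC3SFRP2 was left out of that mean for every library. The Spearman correlation was 0.778 to 0.873 in COL1-PC3SFRP2 and -0.601 to 0.644 in the other groups. The third COL1-PC3SFRP2 library differed further, with correlations of 0.932 and 0.945 to the others of its group, while all other pairs within a group reached 0.974 to 0.986. A second deposited column with the name of this library holds other counts. Results that rest on the group are therefore also given without the third library, with that column in its place (the substituted library), and with each library corrected for GC content and transcript length (the GC correction). Of 7 prostate epithelial markers, all 7 had counts in every group, and their summed level was 5344 to 9734 CPM in COL1-PC3SFRP2, 3372 to 4358 CPM in COL1-PC3, 3226 to 3242 CPM in CCP-PC3SFRP2 and 2976 to 3549 CPM in CCP-PC3. The 8 fibroblast markers summed to at most 17.9 CPM and the 5 endothelial markers to at most 18.6 CPM in any library, both in COL1-PC3SFRP2, and the 5 leukocyte markers to at most 1.30 CPM, in COL1-PC3. *COL1A2* was at 0 in every group but CCP-PC3, *DCN* in both PC3SFRP2 groups, *CDH5* and *TEK* in COL1-PC3SFRP2 and *VWF* in both PC3 groups, and 3 or 4 of the 5 leukocyte markers had counts in each group.

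The promoters of *MMP14*, *TIMP1* and *TIMP3* are shown because they belong to the most abundant of the 6 proteinases, to the most abundant inhibitor and to an inhibitor that was almost undetected. RefSeq promoter sequences (GRCh38.p14) were at hand for 6 of the 9 genes (*MMP11*, *MMP14*, *MMP15*, *MMP24*, *TIMP1* and *TIMP3*). Each line gives the 250 bases before the RefSeq start of the gene, 5′ to 3′ on the strand of the gene, which is the plus strand in each case. Capitals mark matches, on either strand, to the GC box GGGCGG, the CCAAT box CCAAT, or the AP-1-like motif TGAGTAA.
MMP14, chr14:22836335-22836584: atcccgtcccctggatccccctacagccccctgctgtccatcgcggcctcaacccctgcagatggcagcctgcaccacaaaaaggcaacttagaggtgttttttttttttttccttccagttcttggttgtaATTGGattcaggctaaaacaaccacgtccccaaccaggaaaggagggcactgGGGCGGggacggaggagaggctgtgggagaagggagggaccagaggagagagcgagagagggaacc
TIMP1, chrX:47582186-47582435: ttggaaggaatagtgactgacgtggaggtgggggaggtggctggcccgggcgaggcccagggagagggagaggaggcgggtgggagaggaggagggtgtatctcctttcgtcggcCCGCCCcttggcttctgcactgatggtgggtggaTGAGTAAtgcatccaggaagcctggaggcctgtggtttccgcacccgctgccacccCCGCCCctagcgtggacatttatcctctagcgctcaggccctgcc
TIMP3, chr22:32801455-32801704: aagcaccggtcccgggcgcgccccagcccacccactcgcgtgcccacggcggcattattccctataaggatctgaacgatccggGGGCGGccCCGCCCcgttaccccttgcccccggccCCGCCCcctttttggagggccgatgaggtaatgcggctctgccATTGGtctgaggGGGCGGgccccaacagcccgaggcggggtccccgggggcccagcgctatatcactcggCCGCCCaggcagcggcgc
The *TIMP3* window held 5 GC boxes and 1 CCAAT box at a GC content of 72.4%. The *MMP14* window, at 56.8% GC, held 1 GC box, whose first base lies 66 bases before the start, and 1 CCAAT box 118 bases before it. In the *TIMP1* window, at 64.8% GC, there were 2 GC boxes with the AP-1-like TGAGTAA between them; this motif was added to the search after the sequences had been read. A GC box was found in all 6 members' windows and in 42.6% of 35116 promoters of the same length. For the CCAAT box these shares were 3 of 6 (*MMP14*, *MMP15* and *TIMP3*) and 32.0%, and for TGAGTAA 1 of 6 and 2.21%. Neither the AP-1 motif TGANTCA, present in 6.57% of all promoters, nor TATAAA, present in 10.7%, occurred in any of the 6 windows. No match of one motif overlapped a match of another in the printed windows, and a match is only a match of letters.

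The 3 most abundant members were *TIMP1*, *TIMP2* and *MMP14* in every group. Levels of different genes were compared as CPM per kilobase of transcript, with CPM scaled between libraries by the TMM method. *TIMP1* averaged 537 ± 274 in COL1-PC3SFRP2, 397 ± 130 in COL1-PC3, 248 ± 12.4 in CCP-PC3SFRP2 and 338 ± 66.7 CPM per kilobase in CCP-PC3 (SD, n = 3 each). *TIMP2* followed with 45.7 ± 8.43, 61.7 ± 0.84, 50.1 ± 0.718 and 57.9 ± 1.30 CPM per kilobase in the same order of groups. *MMP14* stood at 18.8 ± 3.77, 8.57 ± 0.834, 10.2 ± 0.482 and 7.88 ± 0.247 CPM per kilobase. Libraries of these 3 genes never overlapped with each other within a group. The remaining proteinases were low. On CCP, *MMP1* came next, at 3.02 ± 0.23 CPM per kilobase in CCP-PC3SFRP2 and 2.13 ± 0.0814 in CCP-PC3, above every library of *MMP17* and *MMP15*, which overlapped with each other. In COL1-PC3 the same order held, at 1.54 ± 0.27 for *MMP1*, 1.20 ± 0.161 for *MMP17* and 0.945 ± 0.108 CPM per kilobase for *MMP15*, with *MMP1* and *MMP17* overlapping. In COL1-PC3SFRP2 the order among these 3 turned, with 5.14 ± 4.16 CPM per kilobase for *MMP17*, 1.95 ± 0.701 for *MMP15* and 1.21 ± 0.285 for *MMP1*, and neighbours in this order overlapped. *MMP24* and *MMP11* had at most 0.722 CPM per kilobase in any library. *TIMP3* was at 0 in 11 of 12 libraries.

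**Figure D1:**
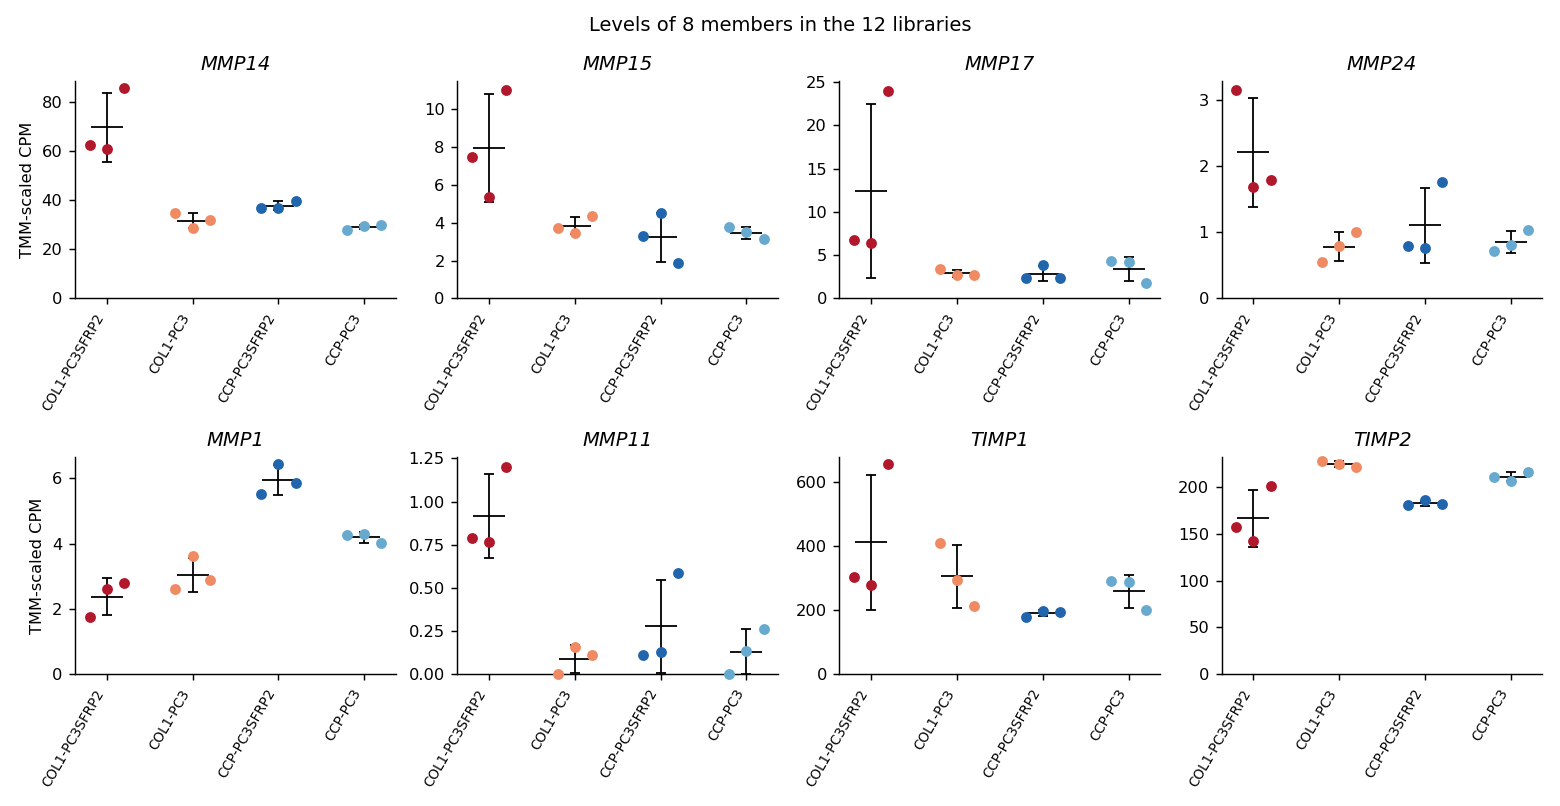
Each panel plots the TMM-scaled CPM of 1 member in the 12 libraries (points, colored by group, linear axis from 0), with the mean and SD of each group in black. In COL1-PC3SFRP2 all 4 membrane-bound MMPs lie above COL1-PC3, and *TIMP2* lies below. *MMP17* has 1 COL1-PC3SFRP2 library at 24.0 CPM, beside 6.79 and 6.42 CPM in the others of the group.

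The membrane-bound metalloproteinases were all higher in COL1-PC3SFRP2 than in COL1-PC3. Adjusted p-values here are from edgeR's quasi-likelihood test with Benjamini-Hochberg adjustment over all 20364 genes, and a gene is called at an adjusted p under 0.05. All 4 membrane-bound members rose, with a median log2 fold change of 1.29 against 0.01 over all genes tested. With the GC correction 0 of the 4 were called and their median was 0.37, and with the substituted library 0 of the 4 were called. In this comparison 35.3% of all genes were called, 18.2% higher and 17.2% lower. That share was 34.6% without the third COL1-PC3SFRP2 library, 16.5% with the GC correction, 20.3% with both, 1.28% with the substituted library and 7.95% when it was also corrected. The 3 libraries against 3 did not overlap for 21.4% of all genes in the higher direction, and they did not overlap for any of these 4 members.

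*MMP14* (ENSG00000157227, chromosome 14 of GRCh38 from 22836560 to 22849041, plus strand) encodes MT1-MMP, a transmembrane collagenase of the cell surface that cleaves type I collagen and activates proMMP2. It had 62.6, 60.9 and 85.8 CPM in the COL1-PC3SFRP2 libraries, against 34.8, 28.6 and 31.9 CPM in COL1-PC3. The third COL1-PC3SFRP2 library was the highest of all, and the others of its group were still above every other library. COL1-PC3SFRP2 was higher by a log2 fold change of 1.14 (SE 0.18, adjusted p = 0.000675). Without the third library it was 0.97 (SE 0.14, adjusted p = 2.6e-06). It was 0.24 with the GC correction (SE 0.135, adjusted p = 0.246) and 0.695 with the substituted library (SE 0.22, adjusted p = 0.125), neither of which passed the threshold. When GC-corrected libraries were fitted and the third one was left out, the call held at 0.34 (SE 0.12, adjusted p = 0.0338), but it was lost in the corrected fit of the substituted library (0.34, adjusted p = 0.0931).

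*MMP17* (ENSG00000198598, chromosome 12 from 131828393 to 131851783, plus strand) encodes MT4-MMP, which is held at the cell surface by a glycolipid anchor. Its level was 6.79, 6.42 and 24.0 CPM in COL1-PC3SFRP2, against 3.35, 2.69 and 2.66 CPM in COL1-PC3. The third library alone held 120 of the 205 counts of its group. The log2 fold change of 2.08 (SE 0.49, adjusted p = 0.00454) became 1.21 (SE 0.34, adjusted p = 0.00578) without that library. The substituted library held 14 counts of *MMP17*, and with it the log2 fold change was 0.78 (adjusted p = 0.342). It was 0.665 with the GC correction (adjusted p = 0.151), so that both of these alternatives ended the call.

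*MMP15* (ENSG00000102996, chromosome 16 from 58025754 to 58046901, plus strand) encodes MT2-MMP, a transmembrane enzyme closely related to MMP14. Its 7.43, 5.35 and 11.0 CPM in COL1-PC3SFRP2 stood against 3.72, 3.47 and 4.33 CPM in COL1-PC3. All 3 libraries were higher, by a log2 fold change of 1.02 (SE 0.33, adjusted p = 0.0269). Without the third library the value was 0.73 (SE 0.32, adjusted p = 0.0767) and the call was lost, as it was without the first, the second or the third COL1-PC3 library (adjusted p = 0.0605, 0.0852 and 0.0577). The sign turned with the GC correction, to -0.23 (SE 0.29, adjusted p = 0.66), and the substituted library gave 0.49 (adjusted p = 0.431).

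*MMP24* (ENSG00000125966, chromosome 20 from 35226690 to 35276998, plus strand) encodes MT5-MMP, a transmembrane enzyme best known from the nervous system. It was rare, with 20, 11 and 9 counts in COL1-PC3SFRP2 and 3, 5 and 9 counts in COL1-PC3. On the scaled level these were 3.16, 1.68 and 1.80 CPM, against 0.558, 0.790 and 0.999 CPM. The log2 fold change was 1.45 (SE 0.49, adjusted p = 0.0324), and 0.49 (adjusted p = 0.602) with the GC correction. The substituted library gave 1.11 (adjusted p = 0.32). Leaving out the third COL1-PC3SFRP2 library kept the call, at 1.57 (adjusted p = 0.0281), while leaving out the first gave 1.08 (adjusted p = 0.152), and the call was also lost without the first, the second or the third COL1-PC3 library (adjusted p = 0.0812, 0.0778 and 0.0573). *MMP24* shares 806 exonic bases with the opposite-strand gene *MMP24OS*, and since the sources used here do not state whether counting used strand, reads of these genes may not have been told apart.

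The secreted members moved in no common direction. *MMP11* (ENSG00000099953, chromosome 22 from 23768226 to 23784316, plus strand), stromelysin-3, is a secreted enzyme known from stromal cells around tumors. It had 5, 5 and 6 counts in the COL1-PC3SFRP2 libraries, against 0, 1 and 1 counts in COL1-PC3. The ratio of the summed counts, scaled to library totals, was 9.62 with an exact 95% interval from 2.26 to 86.3, which covers counting error only. edgeR's adjusted p was 0.0325, and it rose above the threshold without the first or the third COL1-PC3SFRP2 library (0.0562 and 0.079), without the first, the second or the third COL1-PC3 library (0.0757, 0.0585 and 0.0883), with the substituted library (0.357) and with the GC correction (0.233).

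*MMP1* (ENSG00000196611, chromosome 11 from 102789401 to 102798160, minus strand), interstitial collagenase, cleaves fibrillar type I collagen. Between the cell lines on COL1 it was not called. Its libraries held 1.74, 2.60 and 2.80 CPM in COL1-PC3SFRP2, against 2.60, 3.63 and 2.89 CPM in COL1-PC3, and the groups overlapped. Its log2 fold change was -0.36 (SE 0.30, adjusted p = 0.375). *MMP1* shares 223 exonic bases with the opposite-strand pseudogene *WTAPP1*.

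Between the surfaces, *MMP1* fell in COL1-PC3SFRP2 relative to CCP-PC3SFRP2, which had 5.53, 6.43 and 5.87 CPM. In raw counts these were 11, 17 and 14 on COL1, against 49, 50 and 50 on CCP. The log2 fold change was -1.32 (SE 0.28, adjusted p = 0.00226), and every COL1 library lay below every CCP library, as for 25.7% of all genes. In control cells all 3 COL1-PC3 libraries likewise lay below the 4.28, 4.30 and 4.01 CPM of CCP-PC3, with a log2 fold change of -0.46 (SE 0.27) that was not called (adjusted p = 1.0). The fall in PC3SFRP2 cells held without the third library (-1.44, adjusted p = 0.00064) but not with the GC correction (-0.82, adjusted p = 0.0773) or the substituted library (-0.975, adjusted p = 0.129), and it held in corrected libraries when the third was left out (-1.15, adjusted p = 0.00891).

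The inhibitors differed from each other. *TIMP2* (ENSG00000035862, chromosome 17 from 78852977 to 78925387, minus strand) inhibits metalloproteinases and takes part in proMMP2 activation by MMP14. It had 157, 142 and 201 CPM in COL1-PC3SFRP2, against 228, 225 and 222 CPM in COL1-PC3. Each COL1-PC3SFRP2 library was lower than each COL1-PC3 library, which held for 22.3% of all genes. The log2 fold change was -0.43 (SE 0.16, adjusted p = 0.0451). This adjusted p was close to the threshold and passed it in 8 of 23 alternatives, while the fold change stayed between -0.93 and -0.35 in all of them. Of the 12 fits that left out 1 library, it passed in those without the third COL1-PC3SFRP2 or the third CCP-PC3 library, and in the others it was 0.0518 to 0.104. Without the third library it was -0.58 (SE 0.12, adjusted p = 0.000206). *TIMP2* was the single member whose difference on COL1 was larger with the GC correction, at -0.93 (SE 0.105, adjusted p = 1.72e-05). It was -0.50 (adjusted p = 0.0823) with the substituted library and -0.64 (adjusted p = 0.00419) with that library and the GC correction together. *TIMP2* shares 224 exonic bases with *CEP295NL* on the same strand and 367 with a long non-coding RNA on the opposite strand.

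*TIMP1* (ENSG00000102265, chromosome X from 47582408 to 47586789, plus strand) inhibits most secreted metalloproteinases and is known as a poor inhibitor of transmembrane ones such as MMP14. Its level in COL1-PC3SFRP2 was 303, 279 and 656 CPM, against 411, 293 and 213 CPM in COL1-PC3, and the groups overlapped. The log2 fold change of 0.43 (SE 0.30, adjusted p = 0.278) was not called, and its sign depended on the third library, without which it was -0.06 (adjusted p = 0.827). Neither the GC correction (-0.30, adjusted p = 0.265) nor the substituted library (-0.32, adjusted p = 0.508) gave a call. In GC-corrected libraries, and leaving out the third, *TIMP1* was lower in COL1-PC3SFRP2, at a log2 fold change of -0.57 (SE 0.10, adjusted p = 1.33e-05), and with the corrected substituted library it was at -0.60 (adjusted p = 0.00146).

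*TIMP3* (ENSG00000100234, chromosome 22 from 32801705 to 32863041, plus strand), an inhibitor that binds to the extracellular matrix, had 2 counts in all. Both were in the first CCP-PC3SFRP2 library. In the other 11 libraries a count of 0 allows up to 0.301 to 0.543 CPM, taking 3 counts as the limit, and no difference was detectable at this depth.

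**Figure D2:**
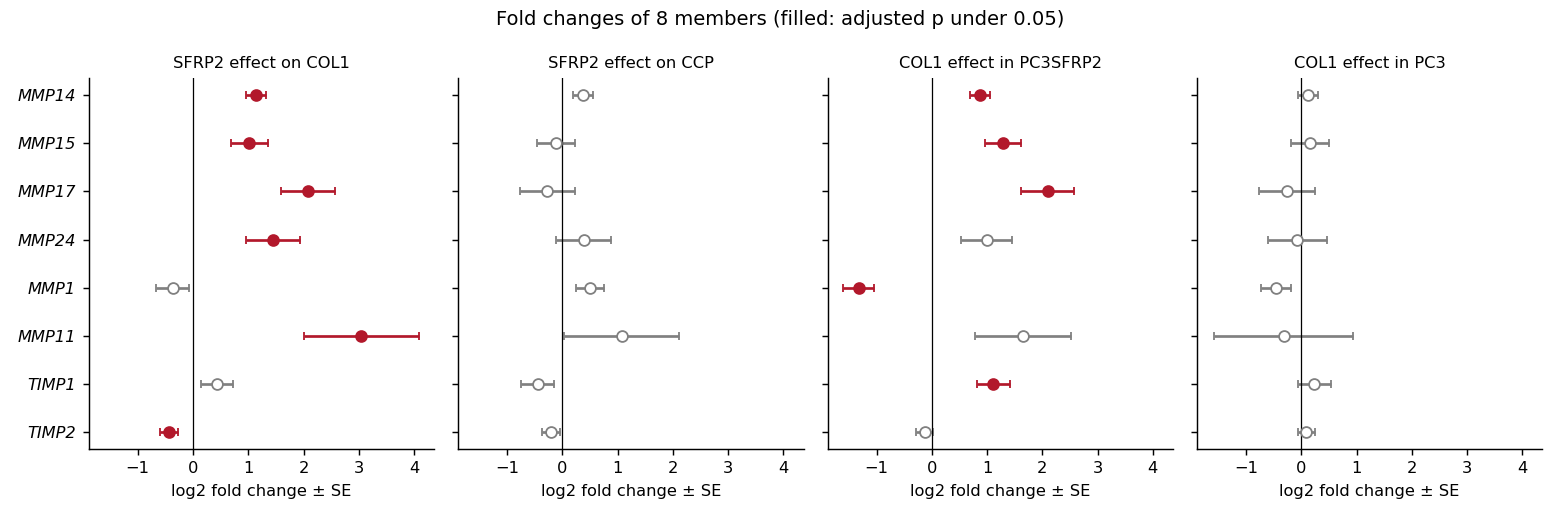
Points show the log2 fold change of 8 members in 4 comparisons and bars its SE, filled where the adjusted p was under 0.05. Filled points appear only in the comparisons that contain COL1-PC3SFRP2. They mark 6 members on COL1 between the cell lines, beside 35.3% of all genes called. Between the surfaces in PC3SFRP2 they mark 5 members, beside 37.8% of all genes. On CCP between the cell lines 0.103% of all genes were called, and 0% in control cells between the surfaces.

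On CCP the question was whether the cell lines also differ without the coating, and no member was called. In this fit 0.103% of all genes were called. An unadjusted p under 0.05 was found for 0 of 8 members, beside 993 of 20364 genes, and DESeq2 called 0 members, beside 98 genes. Values of *MMP14* were nevertheless separate, with 36.8, 36.9 and 39.9 CPM in CCP-PC3SFRP2 against 28.1, 29.4 and 29.9 CPM in CCP-PC3. Its log2 fold change was 0.38 (SE 0.18, adjusted p = 1.0, unadjusted p = 0.0533). *TIMP1* had 180, 197 and 195 CPM in CCP-PC3SFRP2 against 291, 288 and 200 CPM in CCP-PC3, at -0.45 (SE 0.30, adjusted p = 1.0). *TIMP2* had 181, 186 and 182 CPM against 211, 207 and 216 CPM, at -0.21 (SE 0.16). *MMP1* was at 5.53, 6.43 and 5.87 CPM against 4.28, 4.30 and 4.01 CPM, at 0.50 (SE 0.25). In these 4 members the libraries of the groups did not overlap, as in 7.45% of all genes for the higher direction and 12.7% for the lower.

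The spread in these tests was estimated over all 12 libraries. In a fit of the 6 CCP libraries alone, 4.50% of 18253 genes were called, and with them *MMP14*, higher in CCP-PC3SFRP2 by a log2 fold change of 0.43 (SE 0.11, adjusted p = 0.0223), and *TIMP1*, lower, at -0.40 (SE 0.098, adjusted p = 0.0111). Both were also called with the GC correction and the third COL1-PC3SFRP2 library left out (adjusted p = 0.0402 for *MMP14* and 0.00387 for *TIMP1*), where 3.93% of genes passed. These were the 2 of 23 alternatives that called either gene, and leaving out that library alone called neither (adjusted p = 0.162 for *MMP14* and 0.172 for *TIMP1*). *TIMP2* was called in neither, with adjusted p-values of 0.318 and 0.131. The other membrane-bound members showed no common shift on CCP. *MMP17* was at 2.37, 3.86 and 2.35 CPM in CCP-PC3SFRP2 against 4.28, 4.17 and 1.81 CPM in CCP-PC3 (log2 fold change -0.27, SE 0.50). *MMP15* was at 3.27, 4.50 and 1.88 CPM against 3.77, 3.49 and 3.11 CPM (-0.11, SE 0.34), and *MMP24* at 0.790, 0.771 and 1.76 CPM against 0.714, 0.806 and 1.04 CPM (0.39, SE 0.49). *MMP11* had 7 counts in CCP-PC3SFRP2 and 3 in CCP-PC3, a ratio of 2.41 with a counting interval from 0.551 to 14.5.

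The ratio of *MMP14* to *TIMP2* counts within a library does not depend on how libraries are scaled to each other. It was 0.398, 0.428 and 0.426 in COL1-PC3SFRP2 against 0.152, 0.127 and 0.143 in COL1-PC3. On CCP it was 0.203, 0.198 and 0.220 in CCP-PC3SFRP2 against 0.133, 0.142 and 0.138 in CCP-PC3. On both surfaces each PC3SFRP2 library was above each PC3 library. That follows from the levels given above and adds no further evidence, since *MMP14* was higher and *TIMP2* lower without overlap on each surface. How many other pairs of genes would separate in this way was not tested. Permuting 3 against 3 libraries cannot give a two-sided p below 0.10, so the ratios are given as a description. The substituted library had a ratio of 0.173, below the 3 libraries of CCP-PC3SFRP2 and above those of COL1-PC3. The ratio of *MMP14* to *TIMP1* was 0.206, 0.218 and 0.131 in COL1-PC3SFRP2 against 0.0846, 0.0977 and 0.150 in COL1-PC3, with 1 library of each group crossing over. On CCP it was 0.205, 0.187 and 0.205 in CCP-PC3SFRP2 against 0.0968, 0.102 and 0.149 in CCP-PC3, without overlap. Here too the separation follows from the levels, as *MMP14* was higher and *TIMP1* lower without overlap on CCP. *MMP2*, the proenzyme that MMP14 and TIMP2 act on together, had 0 counts in COL1-PC3SFRP2, 1 in COL1-PC3, 3 in CCP-PC3SFRP2 and 0 in CCP-PC3.

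**Figure D3:**
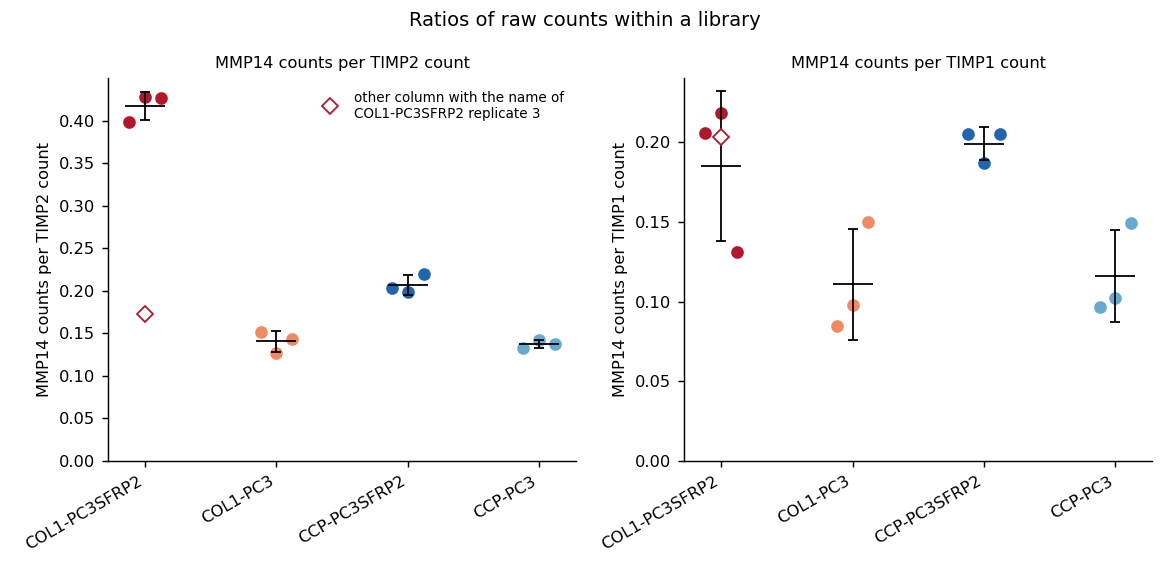
Filled points are the ratios of raw *MMP14* counts to *TIMP2* counts (left) and to *TIMP1* counts (right) in each library, with the mean and SD of each group in black and axes from 0. The open diamond is the substituted library, at 0.173 on the left, far from the 0.398 to 0.428 of the other COL1-PC3SFRP2 libraries, and at 0.203 on the right.

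Collagen type I was set against plastic within each cell line. In PC3SFRP2 cells 5 of 8 members were called between COL1 and CCP, at a background of 37.8% of all genes, 20.0% higher and 17.8% lower. Higher on COL1 were *MMP17* at a log2 fold change of 2.09 (SE 0.48, adjusted p = 0.00333), *MMP15* at 1.29 (SE 0.33, adjusted p = 0.00698), *TIMP1* at 1.11 (SE 0.30, adjusted p = 0.00873) and *MMP14* at 0.88 (SE 0.18, adjusted p = 0.00194). *MMP1* was lower. *MMP24* (0.99, SE 0.46, adjusted p = 0.104), *MMP11* (1.65, SE 0.87, adjusted p = 0.151) and *TIMP2* (-0.13, SE 0.16, adjusted p = 0.556) did not pass. Without the third COL1-PC3SFRP2 library all 5 calls held, with lower values of 1.21 for *MMP17*, 0.99 for *MMP15*, 0.61 for *TIMP1* and 0.70 for *MMP14*. None of the 5 calls held when each library was corrected for GC content, where 15.1% of genes passed, or in the fit with the substituted library. *TIMP2* was called with the GC correction, at -0.655 (SE 0.105, adjusted p = 0.000626).

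In control PC3 cells no member was called between COL1-PC3 and CCP-PC3. edgeR called 0 of 20364 genes (0%) in this comparison, with 793 at an unadjusted p under 0.05, and DESeq2 called 6. No member had an unadjusted p under 0.05, and DESeq2 called 0 members. *MMP14* had a log2 fold change of 0.12 (SE 0.18), *TIMP1* one of 0.23 (SE 0.30) and *TIMP2* one of 0.09 (SE 0.16). Only *MMP1*, which was lower on COL1, and *TIMP2*, which was higher, had libraries that did not overlap, a pattern seen in 7.19% of all genes for the lower and 5.14% for the higher direction.

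The difference between the SFRP2 effects on COL1 and on CCP, which is also the difference between the COL1 effects in the cell lines, was itself tested as an interaction. No member passed, while 7.53% of all genes did. Unadjusted p-values were under 0.05 for 4 of 8 members, beside 6221 of 20364 genes. DESeq2 called 2 members, beside 3921 of 20364 genes. The largest estimates were 2.35 for *MMP17* (SE 0.70, adjusted p = 0.0509), 1.97 for *MMP11* (SE 1.61, adjusted p = 0.426) and 1.13 for *MMP15* (SE 0.48, adjusted p = 0.127). For *MMP14* the difference was 0.76 (SE 0.26, adjusted p = 0.0697) and for *MMP1* -0.86 (SE 0.39, adjusted p = 0.151). Without the second or the third COL1-PC3SFRP2 library *MMP14* and *MMP17* passed, at 0.59 (adjusted p = 0.0285) and 1.49 (adjusted p = 0.0227) without the third, and *MMP17* passed without the first as well. Over all genes 1277, 5505 and 4040 passed without the first, the second and the third. In GC-corrected libraries *TIMP2* passed, its SFRP2 effect being lower on COL1 than on CCP by 0.71 on the log2 scale (-0.71, SE 0.15, adjusted p = 0.0177) beside 2.38% of all genes, and *MMP14* had a difference of -0.12 (adjusted p = 0.786). The comparisons above share libraries with each other, the COL1-PC3SFRP2 ones among them.

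Transcripts of the metalloproteinases were rich in GC, apart from *MMP1*. GC content was 58.9% for *MMP14*, 60.4% for *MMP24*, 61.9% for *MMP11*, 65.5% for *MMP15* and 68.7% for *MMP17*, against 43.3% for *MMP1*, 53.7% for *TIMP2* and 57.5% for *TIMP1*. Among the genes with sufficient counts, the fold change between COL1-PC3SFRP2 and COL1-PC3 rose with GC content, with a Spearman correlation of 0.851 across genes, which are not independent replicates. Split into 10 bins of equal size by GC content, the genes had median log2 fold changes that ran from -1.28 at 36.6% GC to 1.19 at 63.1% GC. The median of the bin nearest to *MMP14* was 0.99, and *MMP14* was 0.14 above it. *MMP15* lay 0.18 below the median of the bin nearest to it (-0.18) and *MMP1* 0.11 above. Farther off were *MMP11*, 1.85 above, *MMP17*, 0.89 above, and *MMP24*, 0.45 above. These 5 members were themselves in no bin, since the bins held genes with a mean log2 CPM over 3. *MMP15* and *MMP17* were richer in GC than their nearest bin at 63.1%, so their distances do not allow for a further climb. The value of *MMP11* rests on 16 counts against 2 (SE 1.04). Both inhibitors lay below, *TIMP1* by 0.56 (-0.56) and *TIMP2* by 1.16 (-1.16). Between CCP-PC3SFRP2 and CCP-PC3 the correlation with GC content was 0.163, and the bins near *MMP14* and *TIMP1* had a median of -0.03. There *MMP14* was 0.41 above and *TIMP1* 0.42 below (-0.42). The part of GC content in the differences on COL1 was not tested beyond the correction, which removes an average trend of any origin.

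**Figure D4:**
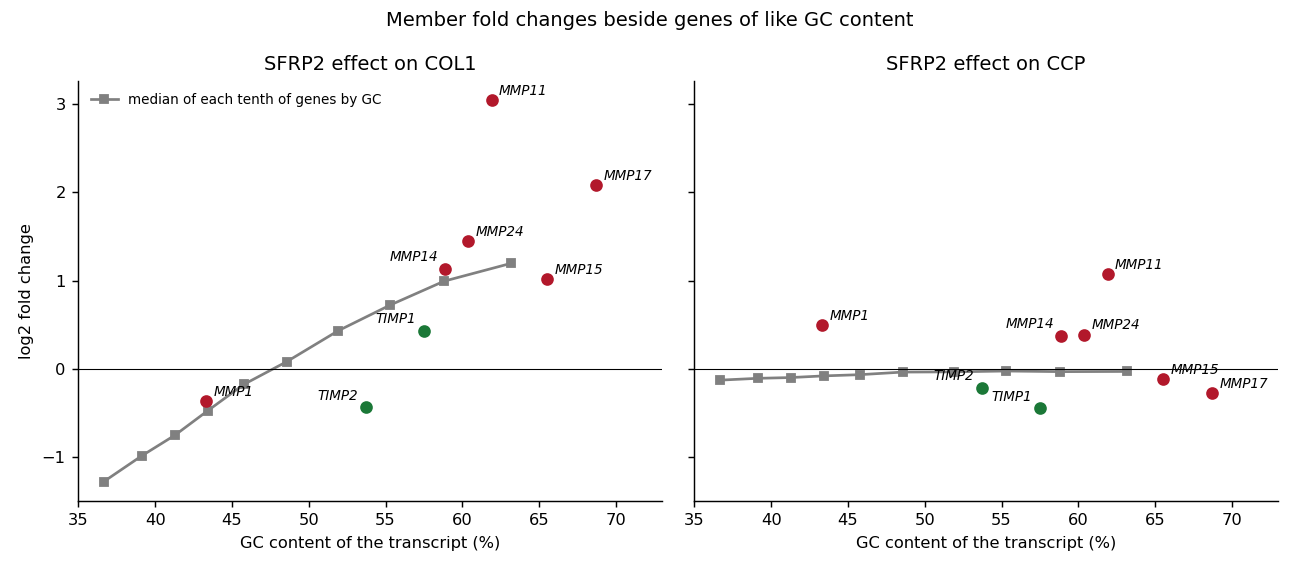
The log2 fold change of 8 members (MMPs red, TIMPs green) is set against the GC content of their transcripts in percent, with squares for the median of each of 10 bins of 9427 genes by GC content. On COL1 (left) the squares climb from -1.28 to 1.19 and *MMP14* and *MMP15* lie near them while *TIMP2* lies 1.16 below, whereas on CCP (right) the squares are almost level.

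**Figure D5:**
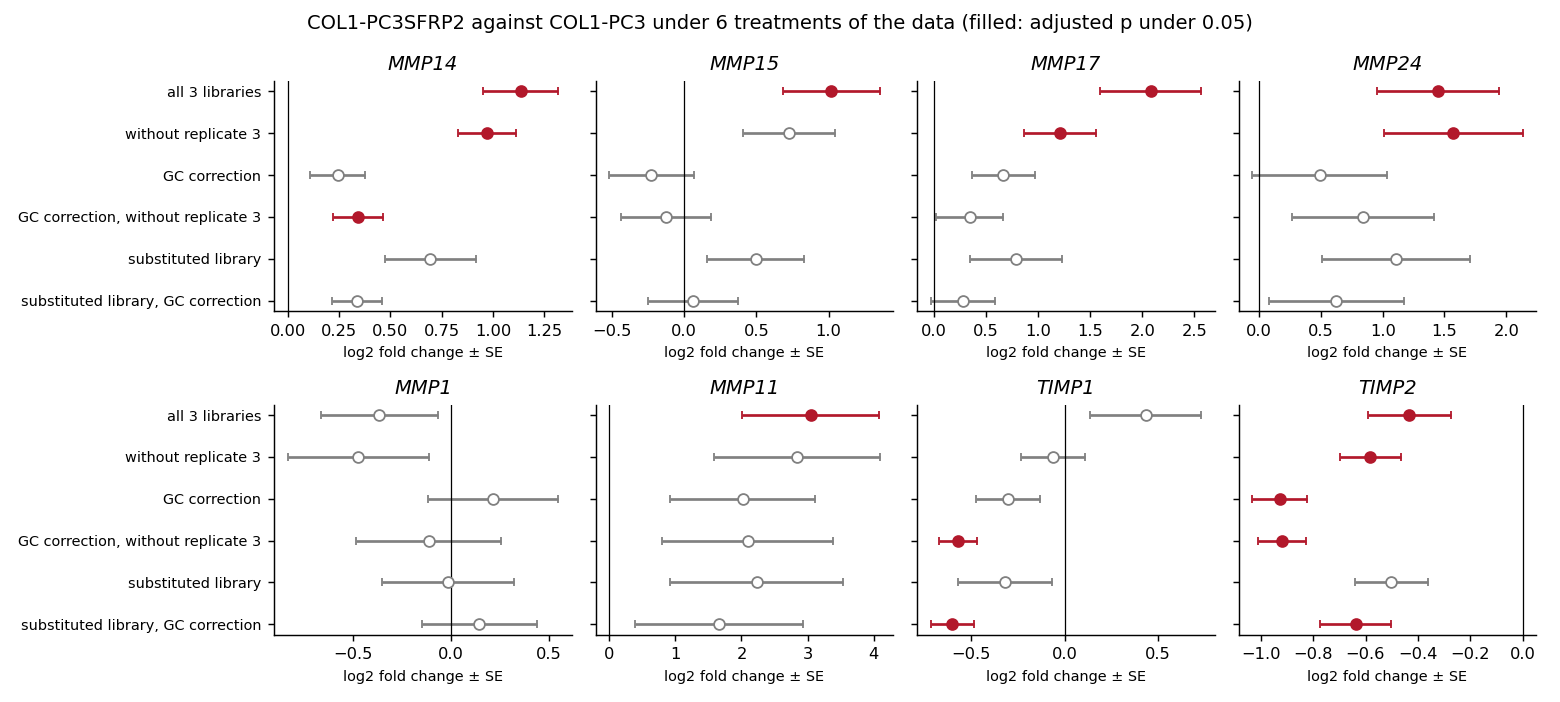
For each member the log2 fold change between COL1-PC3SFRP2 and COL1-PC3 is shown with its SE under 6 treatments of the data, filled where the adjusted p was under 0.05. *TIMP2* lies below 0 throughout and at -0.93 with the GC correction, while *MMP14* shrinks to 0.24 and *MMP15* turns to -0.23.

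Other genes of the pathway were read from fixed lists. Of 19 further MMP and inhibitor genes, 10 were tested. Between COL1-PC3SFRP2 and COL1-PC3 none of them was called by edgeR, beside 35.3% of all genes, and their median log2 fold change was 0.08. *MMP13*, a collagenase known from bone and cartilage, fell in COL1-PC3SFRP2 relative to CCP-PC3SFRP2, to 0.968 ± 0.209 CPM against 2.40 ± 0.655 CPM (SD, n = 3 each), a log2 fold change of -1.32 (SE 0.48, adjusted p = 0.0402). It was the only one of the 10 called in that comparison, beside 37.8% of all genes. The call held without the third COL1-PC3SFRP2 library (-1.48, adjusted p = 0.0366) and was lost with the substituted library, with the GC correction and without any 1 of 5 libraries (the first or second of COL1-PC3SFRP2, or any of CCP-PC3SFRP2, adjusted p = 0.0506 to 0.132).

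Among the activators of proMMPs (furin-type convertases and the plasmin system), 5 of 10 tested genes were higher and 1 was lower in COL1-PC3SFRP2 than in COL1-PC3, beside 18.2% and 17.2% of all genes. The median log2 fold change was 0.75. *ST14*, the gene of matriptase, a serine protease of epithelial cell surfaces, averaged 362 ± 233 CPM in COL1-PC3SFRP2 and 127 ± 16.8 CPM in COL1-PC3 (SD, n = 3 each), a log2 fold change of 1.52 (SE 0.31, adjusted p = 0.00225). *PCSK7*, the gene of a convertase related to furin, was at 15.3 ± 6.78 CPM against 5.37 ± 0.906 CPM (SD, n = 3 each), or 1.51 (SE 0.31, adjusted p = 0.00217). *SERPINB2*, the gene of plasminogen activator inhibitor 2, had 4.32 ± 3.51 CPM against 11.0 ± 1.80 CPM (SD, n = 3 each), at -1.31 (SE 0.48, adjusted p = 0.0448). These 3 calls held without the third COL1-PC3SFRP2 library, at 0.86 for *ST14*, 1.12 for *PCSK7* and -0.81 for *SERPINB2*, and none held with the substituted library (adjusted p = 0.281, 0.144 and 0.312). In GC-corrected libraries 1 gene was higher and 1 lower, beside 16.5% of all genes called, and neither *ST14* nor *PCSK7* nor *SERPINB2* kept its call. That of *SERPINB2* was also lost in 10 of the 12 fits without 1 library (adjusted p = 0.0517 to 0.138). Between the surfaces in PC3SFRP2 cells 5 of the 10 were higher, beside 20.0% of all genes. Among them were *ST14* (1.59, SE 0.31, adjusted p = 0.00152) and the urokinase receptor gene *PLAUR* (1.22, SE 0.24, adjusted p = 0.00169). Without the third library they were at 0.92 and 0.88 and still called, and neither was called with the GC correction or the substituted library.

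ADAM and ADAMTS proteinases, relatives of the MMPs that shed surface proteins or cut proteoglycans, were read next. In COL1-PC3SFRP2, 4 of 22 were higher and 1 lower than in COL1-PC3, with a median log2 fold change of 0.31. Over all genes 18.2% were higher and 17.2% lower, so the share of higher calls in the list was that of all genes. *ADAM15*, the gene of a membrane-bound disintegrin and metalloproteinase, averaged 361 ± 183 CPM against 119 ± 25.2 CPM (SD, n = 3 each), at 1.60 (SE 0.29, adjusted p = 0.00111), and it was also called with the GC correction (0.47). It was at 1.12 without the third COL1-PC3SFRP2 library and still called, and at 0.72 with the substituted library and not called (adjusted p = 0.249). *ADAMTS7* (1.64, SE 0.49, adjusted p = 0.0175) and *ADAMTS15* (1.61, SE 0.44, adjusted p = 0.0114) were not called with that correction, nor without the third COL1-PC3 library (adjusted p = 0.0874 and 0.06), nor with the substituted library (adjusted p = 0.497 and 0.562). Without the third COL1-PC3SFRP2 library they were called at 1.42 and 1.02. Between the surfaces in PC3SFRP2 cells 4 of the 22 were higher and 1 lower, beside 20.0% and 17.8% of all genes, so no excess of higher calls was seen in the list.

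The AP-1 and ETS transcription factors, which are known regulators of MMP genes, moved both ways. In COL1-PC3SFRP2, 5 of 17 were higher and 2 lower than in COL1-PC3, beside 18.2% and 17.2% of all genes, with a median log2 fold change of 0.55. *JUND*, an AP-1 subunit, fell to 44.8 ± 8.72 CPM in COL1-PC3SFRP2, against 126 ± 48.7 CPM in COL1-PC3 (SD, n = 3 each), a log2 fold change of -1.49 (SE 0.26, adjusted p = 0.001). *ELF3*, an epithelial ETS factor (1.52, SE 0.38, adjusted p = 0.0064), and *JUNB*, another AP-1 subunit (1.16, SE 0.29, adjusted p = 0.00599), were higher. *JUND* (then at -2.58) and *ELF3* were also called with the GC correction, and *JUNB* was then at -0.01. The 3 calls held without the third COL1-PC3SFRP2 library, at -1.39 for *JUND*, 0.69 for *ELF3* and 0.85 for *JUNB*, and with the substituted library none held (adjusted p = 0.178, 0.557 and 0.446). *ELF3* was also not called in corrected libraries without the third (0.42, adjusted p = 0.064). Between the surfaces 6 were higher and 2 lower in PC3SFRP2 cells, beside 20.0% and 17.8% of all genes.

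Partners and substrates of MT1-MMP at the cell surface included 5 of 13 genes that were higher and 1 that was lower in COL1-PC3SFRP2 than in COL1-PC3, beside 18.2% and 17.2% of all genes, with a median log2 fold change of 0.57. *LRP1*, the gene of an endocytic receptor that clears proteinases and is cut by MT1-MMP, averaged 50.6 ± 40.5 CPM against 11.0 ± 2.11 CPM (SD, n = 3 each), at 2.20 (SE 0.40, adjusted p = 0.00126). The tetraspanin genes *CD151* (1.52, SE 0.32, adjusted p = 0.00262) and *CD63* (0.98, SE 0.21, adjusted p = 0.00286) also rose. *LRP1* and *CD63* were called with the GC correction too, and *CD151* was not. Without the third COL1-PC3SFRP2 library all 3 were called, at 1.32 for *LRP1*, 0.87 for *CD151* and 0.72 for *CD63*, and with the substituted library none was (adjusted p = 0.0557, 0.364 and 0.163). *LRP1* was also not called in corrected libraries without the third (0.43, adjusted p = 0.0762). Between the surfaces in PC3SFRP2 cells 7 were higher and 3 lower, beside 20.0% and 17.8% of all genes. Of the markers of other cell types, 0 of 6 fibroblast, 1 of 4 endothelial (*VWF*) and 0 of 2 leukocyte genes tested were called by edgeR on COL1 between the cell lines, at median log2 fold changes of 1.24, 0.19 and -0.30. With the GC correction the fibroblast median was 0.90 and 1 of the 6 was called higher, and the part of these markers in the results was not tested. Before correction 4 of 7 epithelial markers were higher, at a median log2 fold change of 1.03, beside 18.2% of all genes. With the GC correction 1 of the 7 was called, beside 16.5% of all genes, and the median was 0.24. On CCP between the cell lines and in control cells between the surfaces edgeR called 0 of the 90 genes of all these lists, and DESeq2 also called 0 in each. At an unadjusted p of edgeR under 0.05 there were 9 and 6 of the 90, beside 993 and 793 of 20364 genes.

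The genes whose levels ran most like those of a member were found for the 3 members above 10 CPM, by the Pearson correlation of log2 CPM over 12 libraries with each of 9015 genes. For *MMP14* these were *TAP1* (r = 0.987), *FGD1* (0.987) and *GANAB* (0.985). *TIMP1* ran most like *SH3BGRL3* (0.984), *CSTB* (0.98) and *PRSS3* (0.977), and *TIMP2* most like *SAPCD2* (0.974), *CHD4* (0.951) and *FOXA1* (0.935). Without the third COL1-PC3SFRP2 library these values were 0.974 to 0.991 for *MMP14*, 0.948 to 0.965 for *TIMP1* and 0.951 to 0.975 for *TIMP2*. The libraries share the group differences described above, and the correlations are given as a description.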

How the data were processed

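RNA sequencing libraries of PC3 cells (Lexogen SENSE mRNA-Seq kit) were analysed from the raw counts per gene that the authors deposited, made by alignment with STAR to GRCh38; the counting program and its use of strand are not given in the sources used here. A second column with the name of the third COL1-PC3SFRP2 library and 11 columns of a second alignment served as alternatives, and 56 further columns of counts were not used. The 11 columns included none for the third COL1-PC3SFRP2 library. Symbols, coordinates, GC content and length came from GENCODE 44, which matched 60357 of 60676 identifiers; the 124 genes of the lists all matched.

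Genes with at least 10 counts summed over 12 libraries (20364) were scaled by TMM and tested by the quasi-likelihood test of edgeR (version 4.0.16, R version 4.3.3) in 1 fit of 4 groups, with Benjamini-Hochberg adjustment and a threshold of 0.05. CPM used TMM-scaled library sizes, and likeness used log2 CPM with a prior count of 2. The SE is the fold change divided by the root of F. The GC correction subtracted, per library, natural splines of GC content and log10 length, each with 5 degrees of freedom. Library totals of 5529459 to 9975972 counts limit the precision for *MMP11*, *MMP24* and *TIMP3*. The fit was tested on simulated counts with a constant spread and no outlying library, in which only genes with higher counts were changed. It recovered 88% of genes changed by a log2 fold change of 1 and 100% at 2, with 6 false calls. That test does not cover rare members such as *MMP11* and *MMP24*, nor a library that stands apart.

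Alternatives were DESeq2 (version 1.42.0), its size factors within edgeR, no filter on low counts, no mitochondrial genes, fits of only the groups compared, a replicate block, leaving out each library, the GC correction with and without the third COL1-PC3SFRP2 library, the substituted library and the second alignment. The substituted library with the GC correction was added after seeing the data. The members, the lists and the tests were chosen with earlier results of these data known. All 9 members are named; from each other list, up to 3 called genes of largest fold change were named, for SFRP2 on COL1, the interaction and, in 2 lists, COL1 in PC3SFRP2. A gene that the rule named and 1 marker are not reported here. *SFRP2* was named as a check of the labels and *MMP2* and *VWF* after their values were seen.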

Additional observations from a re-analysis of the deposited data

Results flagged for a closer look

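The difference between the SFRP2 effects on COL1 and on CCP was called for 5 named genes around the members, each higher on COL1, by edgeR's quasi-likelihood test of the interaction over all genes, in which 7.53% of genes passed. Of the 90 genes tested in the other lists 11 were called, 4 of them epithelial markers. The MT1-MMP partners and substrates held 4 called higher and 1 called lower, of which the 3 with the largest differences are named. *CD151*, a tetraspanin gene, had a difference of 1.62 on the log2 scale (SE 0.45, adjusted p = 0.0448) and *CD63*, another, one of 1.15 (SE 0.30, adjusted p = 0.0397). For the proteinase genes *ST14* and *ADAM15* the differences were 1.61 (SE 0.43, adjusted p = 0.043) and 1.53 (SE 0.40, adjusted p = 0.0397), and for *SDC1*, the gene of the surface proteoglycan syndecan-1, 1.30 (SE 0.35, adjusted p = 0.0436). Without the third COL1-PC3SFRP2 library all 5 were called, at 0.85 to 1.05. None was called with the substituted library or with the GC correction of all 12 libraries, and *CD63* (0.59, adjusted p = 0.00324) was the only one called when corrected libraries were fitted without the third. In 8 of the 12 fits without 1 library (without the second or the third COL1-PC3 library or any CCP library) none of the 5 was called (adjusted p = 0.058 to 0.123).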

How the results depend on the processing

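The number of genes called depended on the treatment of the data in each comparison, and the cause was not tested. For SFRP2 on COL1 7191 genes were called, 4480 to 8299 when 1 library was left out, 2803 in fits of the groups compared alone, 3338 with the GC correction, 4069 with the GC correction and the third COL1-PC3SFRP2 library left out, 262 with the substituted library and 1616 with the substituted library and the GC correction. For SFRP2 on CCP 21 genes were called, 5 to 370 when 1 library was left out (370 without the third COL1-PC3SFRP2 library), 98 with DESeq2, 97 without a filter on low counts, 822 in fits of the groups compared alone, 80 with the GC correction, 787 with the GC correction and the third COL1-PC3SFRP2 library left out, 61 with the substituted library, 390 in the second alignment and 284 with the substituted library and the GC correction. For COL1 in PC3SFRP2 7698 genes were called, 5864 to 8767 when 1 library was left out, 4990 in fits of the groups compared alone, 3057 with the GC correction, 3403 with the GC correction and the third COL1-PC3SFRP2 library left out, 4 with the substituted library and 718 with the substituted library and the GC correction. For COL1 in PC3 0 genes were called, 0 to 36 when 1 library was left out (36 without the third COL1-PC3SFRP2 library), 6 with DESeq2, 11 without a filter on low counts, 12 in fits of the groups compared alone, 354 with the GC correction and the third COL1-PC3SFRP2 library left out, 3 with the substituted library, 34 in the second alignment and 18 with the substituted library and the GC correction. For the interaction 1533 genes were called, 2 to 5505 when 1 library was left out (5505 without the second COL1-PC3SFRP2 library, 4040 without the third, 2 without the third COL1-PC3 library, the second CCP-PC3SFRP2 library or the first or second CCP-PC3 library), 3921 with DESeq2, 3710 without a filter on low counts, 482 with the GC correction, 0 with the substituted library, 4004 in the second alignment and 1 with the substituted library and the GC correction. Members followed. For SFRP2 on COL1 6 of 8 members were called, 2 to 6 when 1 library was left out, 3 without a filter on low counts, 3 in fits of the groups compared alone, 1 with the GC correction, 3 with the GC correction and the third COL1-PC3SFRP2 library left out, 0 with the substituted library and 2 with the substituted library and the GC correction. For SFRP2 on CCP 0 of 8 members were called, 0 in each fit when 1 library was left out, 2 in fits of the groups compared alone and 2 with the GC correction and the third COL1-PC3SFRP2 library left out. For COL1 in PC3SFRP2 5 of 8 members were called, 5 to 6 when 1 library was left out, 1 with the GC correction, 2 with the GC correction and the third COL1-PC3SFRP2 library left out, 0 with the substituted library and 0 with the substituted library and the GC correction. For COL1 in PC3 0 of 8 members were called, 0 in each fit when 1 library was left out. For the interaction 0 of 8 members were called, 0 to 2 when 1 library was left out, 2 with DESeq2, 1 without a filter on low counts, 1 with the GC correction, 1 with the GC correction and the third COL1-PC3SFRP2 library left out and 2 in the second alignment. Several fold changes also turned sign. With the GC correction, *MMP15* had -0.226 for SFRP2 on COL1, *MMP1* had 0.217 for SFRP2 on COL1, *TIMP1* had -0.301 for SFRP2 on COL1, *JUNB* had -0.012 for SFRP2 on COL1, *MMP14* had -0.086 for COL1 in PC3SFRP2, *MMP15* had -0.037 for COL1 in PC3SFRP2, *MMP24* had -0.0015 for COL1 in PC3SFRP2, *MMP14* had -0.123 for the interaction and *MMP15* had -0.095 for the interaction. With the GC correction and the third COL1-PC3SFRP2 library left out, *MMP15* had -0.126 for SFRP2 on COL1, *TIMP1* had -0.569 for SFRP2 on COL1, *TIMP1* had -0.149 for COL1 in PC3SFRP2, *MMP14* had -0.025 for the interaction and *TIMP1* had -0.185 for the interaction. With the substituted library and the GC correction, *MMP1* had 0.145 for SFRP2 on COL1, *TIMP1* had -0.602 for SFRP2 on COL1, *JUNB* had -0.0078 for SFRP2 on COL1, *TIMP1* had -0.18 for COL1 in PC3SFRP2, *MMP14* had -0.029 for the interaction and *TIMP1* had -0.218 for the interaction. With the substituted library, *TIMP1* had -0.318 for SFRP2 on COL1. In the second alignment, without the third COL1-PC3SFRP2 library, *TIMP1* had -0.057 for SFRP2 on COL1 and *MMP24* had 0.11 for COL1 in PC3. When 1 library was left out the sign depended on the library for *TIMP1* for SFRP2 on COL1 (-0.062 to 0.708), *MMP15* for SFRP2 on CCP (-0.366 to 0.161), *MMP24* for SFRP2 on CCP (-0.113 to 0.646), *MMP11* for SFRP2 on CCP (-0.034 to 2.004), *MMP24* for COL1 in PC3 (-0.307 to 0.104), *MMP11* for COL1 in PC3 (-0.929 to 0.564) and *TIMP1* for COL1 in PC3 (-0.04 to 0.439). Same-numbered libraries mostly did not deviate together (4 of 18 pairs had a correlation over 0.1, range -0.597 to 0.591, and other pairs -0.665 to 0.647). Between COL1-PC3 and CCP-PC3 the same-numbered pairs were at 0.346, -0.067 and 0.591. Deviations from means of so few libraries cannot exclude a pairing, and the main fit used none. With the replicate number as a block the interaction called 2 genes, *TIMP2* on COL1 was at -0.441 (adjusted p = 0.063), *SERPINB2*, *MMP13* and the interactions of *ST14*, *ADAM15*, *CD151*, *SDC1* and *CD63* were not called either, and no other named gene changed its call. Depth limits *MMP11*, *MMP24* and *TIMP3*, which had at most 40 counts in any group.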
